A study of Mus musculus with 24 samples.

Results

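The subject here is the difference between 2 mouse strains in how the dorsal root ganglion answers a crush of the sciatic nerve. For every gene the change from naive to injured ganglia in DBA mice was set against the same change in C57 mice, so that it is the strain difference in the response, not in the level, that is measured. The comparison uses 16 of the 24 libraries of the series: naive C57, injured C57, naive DBA and injured DBA ganglia, with 4 libraries in each group, and the injured ganglia were taken 5 days after the crush. The other 8 libraries are naive and injured ganglia of CAST mice, whose values are given beside some genes. The design text names the replicates as biological. The labels give no substrain, sex, age or ganglion level. They call the controls naive, while the protocol field names a sham injury, and which of the 2 was done was not settled from the labels. The comparison covers all genes of the deposited tables, of which 26157 passed the filter on low values.

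Dorsal root ganglia hold the cell bodies of sensory neurons, wrapped by satellite glia and mixed with Schwann cells, fibroblasts, vessels and resident macrophages. Crush of a peripheral axon switches these neurons from a transmitting to a growing state: transcription factors such as Atf3 and Jun, growth-cone proteins and neuropeptides rise, while ion channels and receptors of the resting neuron fall. The non-neuronal cells respond as well, with glial activation, proliferation and macrophage entry. Inbred strains are known to differ in axon growth after such an injury.

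In these libraries the DBA response was mostly the larger. Across 26157 genes, 1882 differed in their crush response by both limma on log2(estimated CPM + 0.5) and voom on estimated reads, each at a Benjamini-Hochberg adjusted p under 0.05, which is 7.20% of the genes tested. Below, a difference is called only by this double rule. The DBA response was the higher for 912 genes (3.49%) and the lower for 970 (3.71%). limma alone called 2412 genes (9.22%), of which 1277 were higher and 1135 lower, so which direction was the more frequent depends on the rule. Levels are given as estimated CPM, reads scaled to library size, that is the deposited FPKM times the gene's genomic span in kilobases, and are compared within a gene only. Differences in response are on the log2 scale, DBA minus C57, with their standard error (SE). Because 0.5 CPM is added before the log, a constant fold difference between the strains cancels only in genes well above that level, and the size of a difference in low genes depends on it. For Gfap, Ifi202b and Cxcl14, which start low and unequal in the strains, voom, which adds 0.5 reads in its place, gave differences of 2.02, 2.51 and 2.17. Stmn4, Sox2, Scn10a, Scn11a, Calca, P2rx3, Htr3b, Chrna5, Chrna6, Chrnb3, Klk5, Klk8 and the 3 promoter genes named last were chosen after their values were seen.

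Of the 1882 genes, 1631 (86.7%) changed more in DBA than in C57 and 190 (10.1%) changed more in C57. The largest classes were 653 genes that fell in both strains and fell further in DBA, 459 that rose in both and rose further in DBA, 339 that rose in DBA alone and 180 that fell in DBA alone. Far fewer rose further in C57 (57 genes) or rose in C57 alone (58 genes). The responses were called in opposite directions for 58 genes. The crush itself raised 5105 genes (19.5%) and lowered 5563 (21.3%) in C57, and raised 7193 (27.5%) and lowered 6454 (24.7%) in DBA. Among the 4463 genes called up in both strains, 75.5% had the larger log2 change in DBA, with a median of 0.51 against 0.39 in C57. Among the 4603 called down in both, 78.3% had the larger change in DBA, with medians of -0.43 and -0.34. The median difference over all genes tested was 0.012, and the median response was -0.002 in C57 and 0.014 in DBA.

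**Figure D1:**
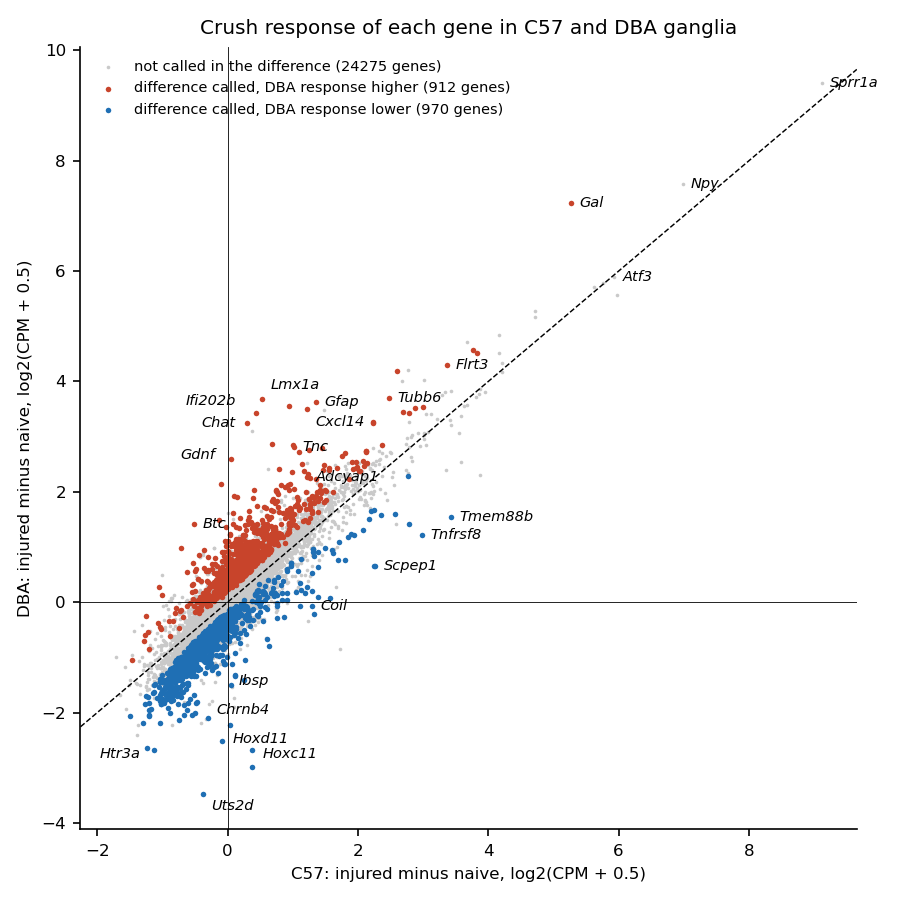
Change from naive to injured ganglia, log2(CPM + 0.5), for each of the 26157 genes tested, in C57 (horizontal) and DBA (vertical), means of 4 libraries per group; the dashed line marks equal change. The 912 genes with a higher DBA response (red) lie above the line and the 970 with a lower one (blue) below it, while Atf3, Sprr1a and Npy lie near it and were not called.

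Of 11 well-known regeneration genes the response differed for 5 (Gal, Gfap, Gap43, Jun and Gadd45a) and was not called for 6. Atf3, the transcription factor used as a marker of axotomised neurons (chromosome 1, 191170296 to 191218039, minus strand, GRCm38), read 16.7, 13.8, 12.8 and 11.8 CPM in the naive and 995, 838, 861 and 768 CPM in the injured C57 libraries. In DBA it read 16.4, 14.9, 13.4 and 12.5 CPM naive and 947, 843, 877 and 856 CPM injured. Within each state the strains overlapped, and the rise was 62.9-fold in C57 and 61.5-fold in DBA. Its difference in response was -0.029 (95% interval -0.40 to 0.34; limma adjusted p = 0.961, voom adjusted p = 0.958). Sprr1a, a small proline-rich protein of growing axons, rose 721-fold in C57 and 979-fold in DBA, a difference of 0.30 with an interval of -0.46 to 1.06 (limma adjusted p = 0.73, voom adjusted p = 0.808). For Sox11, a transcription factor that promotes axon growth, the difference was 0.066 (-0.29 to 0.43; limma adjusted p = 0.893, voom adjusted p = 0.924). These intervals bound what the libraries could have missed and do not show that the strains respond alike. Npy, neuropeptide Y, rose 341-fold and 320.0-fold from naive means of 0.290 and 0.719 CPM. Its difference was 0.60 by limma (0.030 to 1.16; limma adjusted p = 0.208, voom adjusted p = 0.938) and -0.11 by voom, so that the direction turned with the scale, and it was not called. Csf1, which neurons release to act on macrophages and microglia, differed by 0.29 (0.10 to 0.49; limma adjusted p = 0.0518, voom adjusted p = 0.118) and was not called either. Inhba, the activin beta-A subunit, was low in both strains, at 0.202 CPM in injured C57 and 0.363 CPM in injured DBA ganglia, against 2.56 CPM in injured CAST, and its DBA minus C57 difference of 0.32 was not called (limma adjusted p = 0.0992, voom adjusted p = 0.216).

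Other growth genes rose in both strains and by more in DBA. Gap43, the membrane protein of growth cones, rose 3.91-fold in C57 and 5.44-fold in DBA, a difference of 0.47 ± 0.090 (SE; limma adjusted p = 0.00112, voom adjusted p = 0.00142). For Jun, the AP-1 subunit needed for regeneration, the rises were 2.59-fold and 4.01-fold (difference 0.62 ± 0.11 SE, limma adjusted p = 0.000564, voom adjusted p = 0.000841). Gadd45a, a stress-induced growth arrest gene, rose 8.54-fold and 12.8-fold (difference 0.55 ± 0.12 SE, limma adjusted p = 0.00429, voom adjusted p = 0.00821). Tubb6, a beta-tubulin, had the largest called difference of the growth list. It read 21.5, 21.3, 22.2 and 23.8 CPM in naive and 142, 124, 117 and 119 in injured C57 libraries, and 14.4, 14.0, 12.8 and 13.7 in naive and 193, 189.8, 165 and 188 in injured DBA libraries. DBA thus began below C57 and ended above it with no overlap in either state, and the difference was 1.22 ± 0.093 (SE; limma adjusted p = 4.86e-09, voom adjusted p = 2.13e-08). Flrt3, an adhesion protein of growth cones, rose 11.1-fold and 22.001-fold (difference 0.93 ± 0.13 SE, limma adjusted p = 5.39e-05, voom adjusted p = 0.000257), and Tnfrsf12a, the TWEAK receptor, 4.34-fold and 6.81-fold. Of 26 growth-associated genes tested, 24 rose in C57 and 22 in DBA, beside 19.5% and 27.5% of all genes. The DBA response was higher for 6 of the 26 and lower for 1, beside 3.49% and 3.71% of all genes. The lower 1 was Stmn4, a stathmin that regulates microtubules, whose difference was -0.48. The list's median difference was 0.19, against 0.012 over all genes.

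The 4 genes with the largest mean rise, Sprr1a, Npy, Gal and Atf3, included 1 that was called: Gal, the neuropeptide galanin (chromosome 19, 3409915 to 3414544, minus strand). It read 10.99, 8.69, 10.1 and 9.34 CPM in naive C57 and 11.1, 10.1, 8.33 and 10.6 CPM in naive DBA libraries, which overlap. After the crush it read 447, 403, 387 and 345 CPM in C57 and 1608, 1597, 1495 and 1603 CPM in DBA, with every injured DBA library above every injured C57 library. The rise was 40.5-fold in C57 and 157-fold in DBA, a difference of 1.97 ± 0.26 (SE; limma adjusted p = 3.75e-05, voom adjusted p = 3.21e-05), and CAST moved from 10.9 to 1323 CPM. Adcyap1, the precursor of the peptide PACAP, rose 2.33-fold in C57 and 4.86-fold in DBA (difference 1.05 ± 0.12 SE, limma adjusted p = 1.42e-06, voom adjusted p = 3.21e-06). Vgf, a neurotrophin-inducible secretory granule protein, rose 3.19-fold and 5.36-fold (difference 0.75 ± 0.12 SE, limma adjusted p = 0.000129, voom adjusted p = 0.00017), and Nts, neurotensin, 15.3-fold and 24.6-fold (difference 0.68 ± 0.15 SE, limma adjusted p = 0.00466, voom adjusted p = 0.0168). In the list of 15 injury-induced neuropeptides and receptors the DBA response was higher for 5, beside 3.49% of all genes, and lower for none, with a median of 0.40.

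Several genes with low naive levels rose far more in DBA than in C57. Lmx1a, a LIM homeodomain transcription factor (chromosome 1, 167689237 to 167848741, plus strand), had the largest higher difference on log2(CPM + 0.5) among protein-coding genes with a mean of at least 1 CPM, a level it passes through the injured DBA libraries alone. By voom the difference was larger for Chat, at 5.21 against 4.63. Chat and Car4, and Gdnf further below, also reach a mean of 1 CPM through the injured DBA libraries alone. Their place among the largest differences thus rests in part on the group where they are high. Lmx1a read 0.0156, 0.0103, 0.0665 and 0.102 CPM in naive and 0.368, 0.261, 0.273 and 0.251 in injured C57 libraries, and 0.0399, 0.0189, 0.0585 and 0.0220 in naive and 6.01, 6.40, 6.46 and 6.56 in injured DBA libraries. The injured DBA libraries stand clear of all others, and the difference was 3.16 ± 0.089 (SE; limma adjusted p = 3.41e-17, voom adjusted p = 4.98e-05); in CAST it went from 0.0481 to 0.0646 CPM. Chat, choline acetyltransferase, the enzyme that makes acetylcholine (chromosome 14, 32408203 to 32465989, minus strand), read 0.196, 0.169, 0.214 and 0.162 CPM in injured C57 and 4.31, 4.28, 4.78 and 4.86 CPM in injured DBA libraries, from 0.0309 to 0.113 and 0.0264 to 0.0468 CPM when naive, a difference of 2.94 ± 0.14 (SE; limma adjusted p = 1.54e-12, voom adjusted p = 3.82e-05). C1ql2, a C1q-like secreted synaptic protein (chromosome 1, 120340582 to 120343174, plus strand), read 0.566 to 0.933 CPM in injured C57 and 5.99 to 7.85 CPM in injured DBA libraries (difference 2.62 ± 0.15 SE, limma adjusted p = 2.42e-11, voom adjusted p = 0.000392). Every naive C57 library was at or below 0.256 CPM for this gene. Car4, a membrane-bound carbonic anhydrase, read 0.511 to 0.823 CPM naive and 0.631 to 0.857 CPM injured in C57, where its change was not called, against 0.213 to 0.356 CPM naive and 2.3003 to 2.60 CPM injured in DBA (difference 1.83 ± 0.16 SE, limma adjusted p = 4.18e-08, voom adjusted p = 2.25e-06). Ifi202b, an interferon-inducible gene with near-identical relatives beside it, already differed between naive libraries, at 0.135 to 0.215 CPM in C57 and 1.62 to 2.24 CPM in DBA, and reached 25.4, 21.2, 33.8 and 25.5 CPM in injured DBA against 0.269, 0.351, 0.426 and 0.598 in injured C57 libraries (difference 2.98 ± 0.20 SE, limma adjusted p = 4.25e-10, voom adjusted p = 0.00349). How reads shared with its relatives were counted is not given in the sources used here, so its levels are uncertain.

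Genes listed for repair Schwann cells, several of them trophic factors, often had a higher DBA response. The share called among genes listed for satellite glia was near that over all genes. Gfap, the intermediate filament of activated glia (chromosome 11, 102887336 to 102900912, minus strand), read 0.748, 0.691, 0.388 and 0.814 CPM in naive and 2.87, 2.23, 2.74 and 2.01 in injured C57 libraries. In DBA it read 2.76, 2.10, 1.78 and 1.97 CPM naive and 40.1, 29.5, 30.3 and 29.8 CPM injured. The lowest injured DBA library lay above the highest injured C57 library, and the rise was 3.73-fold in C57 and 15.1-fold in DBA (difference 2.28 ± 0.21 SE, limma adjusted p = 1.01e-07, voom adjusted p = 0.000214). Gdnf, a survival factor for neurons that repair Schwann cells make (chromosome 15, 7810846 to 7837575, plus strand), read 0.325, 0.249, 0.411 and 0.243 CPM naive and 0.384, 0.242, 0.372 and 0.325 injured in C57, where its change was not called. It read 0.252, 0.190, 0.188 and 0.141 CPM naive and 4.17, 4.10, 3.65 and 2.91 injured in DBA, a rise of 19.2-fold. The C57 groups overlap and the DBA groups do not, and the difference was 2.55 ± 0.21 (SE; limma adjusted p = 1.73e-08, voom adjusted p = 5.23e-05). Ucn2, urocortin 2, a ligand of the type 2 corticotropin-releasing hormone receptor, rose 3.54-fold in C57 and 20.4-fold in DBA (difference 2.18 ± 0.16 SE, limma adjusted p = 1.83e-09, voom adjusted p = 0.00156). Bdnf, brain-derived neurotrophic factor, was 4.41 CPM naive and 4.53 CPM injured in C57, and 3.45 and 5.75 CPM in DBA (difference 0.62 ± 0.094 SE, limma adjusted p = 8.77e-05, voom adjusted p = 0.00014). Sox2, a transcription factor of immature Schwann cells, differed by 0.48. Of 17 genes listed for repair Schwann cells the DBA response was higher for 9, beside 3.49% of all genes, and lower for none, with a median of 0.45. Of the 17, 12 rose in DBA and 6 in C57, beside 27.5% and 19.5% of all genes. Among the 9 is Fgf5, which fell in C57 (-0.73) and whose DBA change of -0.16 was not called. Gfap is on this list and not on that of satellite glia. Several of these 17, Jun and Bdnf among them, are also expressed by neurons. Among 14 satellite glia genes 1 differed, beside 7.20% of all genes. It was Glul, glutamine synthetase, which rose 1.47-fold in C57 and 1.14-fold in DBA (difference -0.37 ± 0.083 SE, limma adjusted p = 0.00463, voom adjusted p = 0.00566). In whole ganglia, fewer cells of a type and less RNA per cell cannot be told apart.

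**Figure D2:**
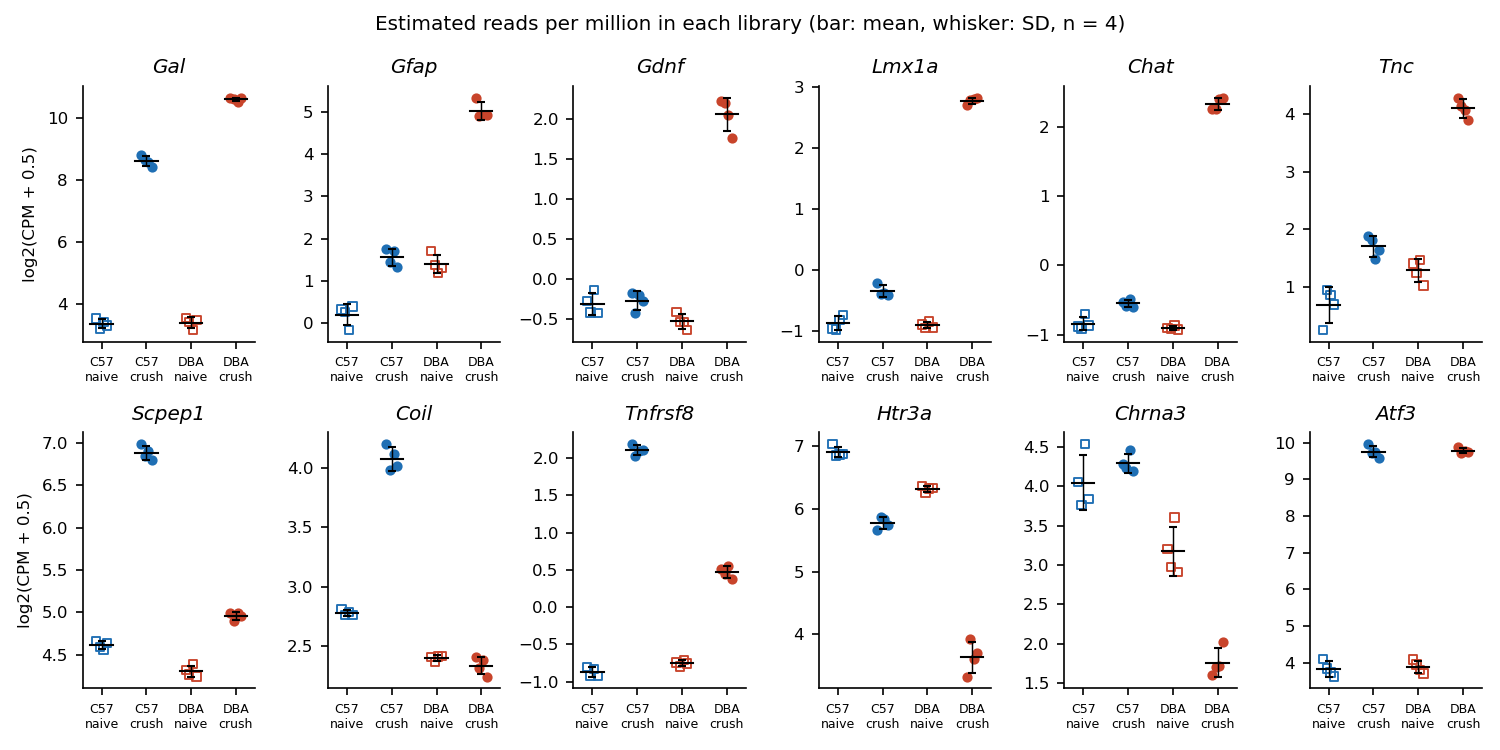
log2(CPM + 0.5) of 12 genes in each library; open squares are naive and filled circles injured ganglia, C57 in blue and DBA in red, with the mean and SD of 4 libraries. Gal, Gfap, Gdnf, Lmx1a, Chat and Tnc end higher in injured DBA than in injured C57 ganglia, Scpep1, Coil, Tnfrsf8, Htr3a and Chrna3 end lower, and Atf3 overlaps.

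Matrix and stromal genes responded more in DBA. Tnc, the matrix glycoprotein tenascin C (chromosome 4, 63959785 to 64047015, minus strand), read 0.690, 1.43, 1.31 and 1.12 CPM in naive and 3.20, 3.004, 2.31 and 2.63 in injured C57 libraries, and 2.16, 1.87, 2.28 and 1.54 in naive and 19.0, 17.1, 16.4 and 14.5 in injured DBA libraries. Its rise was 2.45-fold in C57 and 8.54-fold in DBA, and the injured groups did not overlap (difference 1.79 ± 0.18 SE, limma adjusted p = 2.56e-07, voom adjusted p = 2.49e-05). Timp1, an inhibitor of matrix metalloproteases, rose 1.87-fold and 4.62-fold (difference 1.19 ± 0.11 SE, limma adjusted p = 4.54e-08, voom adjusted p = 6.71e-07), and Postn, periostin, 1.52-fold and 3.61-fold (difference 1.16 ± 0.14 SE, limma adjusted p = 2.77e-06, voom adjusted p = 6.1e-06). Col1a1, the collagen I alpha-1 chain, differed by 0.88 ± 0.26 (SE; limma adjusted p = 0.033, voom adjusted p = 0.0344), a call that ended in 12 of 27 alternative settings, among them the fit of the 16 libraries alone (limma adjusted p = 0.0629). Of 15 fibroblast and matrix genes the DBA response was higher for 7, beside 3.49% of all genes, and lower for none, with a median of 0.67. The summed level of the list was 355 to 589.8 CPM in naive C57, 589 to 746 in injured C57, 449.8 to 724 in naive DBA and 1138 to 1306 in injured DBA libraries. Whether more fibroblast tissue in some ganglia had a part in this was not tested.

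Genes of cell division followed the same direction. Top2a, the topoisomerase of dividing cells, rose 2.07-fold in C57 and 6.10-fold in DBA (difference 1.31 ± 0.22 SE, limma adjusted p = 0.000348, voom adjusted p = 0.00269). Mcm6, a subunit of the replicative helicase, read 7.06 to 7.74 CPM in naive and 10.96 to 12.3 in injured C57 libraries, against 1.35 to 1.55 and 5.37 to 6.12 in DBA. The strains thus differed already when naive and DBA stayed below C57 after the crush, while its rise of 4.02-fold exceeded that of 1.55-fold in C57 (difference 1.10 ± 0.077 SE, limma adjusted p = 1.34e-09, voom adjusted p = 7.18e-09). Bub1b, a spindle checkpoint kinase, had the same order of levels, 3.04 and 2.98 CPM in naive and injured C57 against 0.268 and 1.14 CPM in DBA (difference 1.12 ± 0.19 SE, limma adjusted p = 0.00034, voom adjusted p = 0.000677). The DBA response was higher for 9 of 24 cell cycle genes, beside 3.49% of all genes, and lower for none. Of the 24, 19 rose in DBA and 11 in C57, beside 27.5% and 19.5% of all genes.

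Cytokine and immune genes split. Cxcl14, a chemokine (chromosome 13, 56288643 to 56296551, minus strand), rose 4.10-fold in C57, being between 0.288 and 0.450 CPM naive and between 1.33 and 1.65 CPM injured, and 18.0-fold in DBA, being between 0.615 and 1.06 CPM naive and between 11.01 and 15.3 CPM injured (difference 2.29 ± 0.16 SE, limma adjusted p = 1.36e-09, voom adjusted p = 8.32e-05). Ccl2, which draws monocytes, rose 2.85-fold and 8.57-fold (difference 1.20 ± 0.15 SE, limma adjusted p = 8.58e-06, voom adjusted p = 0.00123). It overlaps the gene model Gm17268 on the other strand, and the counting is not stated to use strand, so the reads of the 2 cannot be told apart. Cxcl12, a chemokine of stromal cells, went from 10.6 to 11.3 CPM in C57 and from 7.86 to 16.4 CPM in DBA (difference 0.93 ± 0.14 SE, limma adjusted p = 9.43e-05, voom adjusted p = 0.000161). Socs3, the feedback inhibitor of gp130 cytokine signalling, rose 2.46-fold and 4.97-fold (difference 0.98 ± 0.21 SE, limma adjusted p = 0.00351, voom adjusted p = 0.00422). It was the only one of 17 genes of that pathway called, a share near the 7.20% of all genes. C3, the central complement component, rose 3.63-fold in C57 and 8.91-fold in DBA (difference 1.33 ± 0.23 SE, limma adjusted p = 0.000391, voom adjusted p = 0.00748), whereas Cd55, which blocks complement on the cell surface, fell 2.01-fold and 3.405-fold (difference -0.75 ± 0.12 SE, limma adjusted p = 0.000149, voom adjusted p = 0.000222). Macrophage markers rose in both strains, 19 of 20 in each, beside 19.5% of all genes in C57 and 27.5% in DBA. Their difference was called for 2, beside 7.20% of all genes. It was higher for Cd14, a co-receptor for lipopolysaccharide, and lower for Lgals3, galectin-3, which rose 4.60-fold in C57 and 2.56-fold in DBA from a naive level of 2.86 to 4.67 against 7.63 to 8.54 CPM (difference -0.77 ± 0.13 SE, limma adjusted p = 0.000388, voom adjusted p = 0.000147). The call of Cd14 ended in 15 of 27 alternative settings, upper-quartile scaling among them, so the count of 2 depends on the processing. The macrophage list summed to 422 to 488 CPM in injured C57 and 512 to 598 CPM in injured DBA libraries, from 172 to 192 and 171 to 219.6 CPM naive.

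Of the interferon and antigen presentation lists, the second held more calls. In DBA 15 of 22 interferon-response genes rose, beside 27.5% of all genes. In C57 5 rose, a share near the 19.5% of all genes. The difference was called for 1 of the 22, beside 3.49% of all genes. It was Ifitm3, a membrane protein that restricts viral entry (difference 0.81 ± 0.14 SE, limma adjusted p = 0.000422, voom adjusted p = 0.000862). The list's median crush response was 0.15 in C57, 0.64 in DBA and 3.01 in CAST. Of 14 antigen presentation genes 12 rose in DBA and 6 in C57, and 3 had a higher DBA response: B2m, the light chain of class I molecules (difference 0.64 ± 0.16 SE, limma adjusted p = 0.0111, voom adjusted p = 0.0151), H2-K1, a class I heavy chain (difference 0.58 ± 0.15 SE, limma adjusted p = 0.0113, voom adjusted p = 0.0201), and Ciita, the activator of class II genes (difference 0.99 ± 0.18 SE, limma adjusted p = 0.000639, voom adjusted p = 0.000642). These 3 of 14 stand beside 3.49% of all genes, and the 12 and 6 that rose beside 27.5% in DBA and 19.5% in C57. Reads of H2-K1 can be shared with related class I genes, and its levels are uncertain.

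Some immediate early genes and genes of the unfolded protein response also had a higher DBA response. Fos, an AP-1 subunit, read 3.61, 3.60, 2.46 and 3.30 CPM in injured C57 and 14.6, 11.4, 12.9 and 13.5 CPM in injured DBA libraries, from 1.38 to 2.21 and 2.002 to 3.38 CPM naive (difference 1.29 ± 0.19 SE, limma adjusted p = 8.2e-05, voom adjusted p = 0.000703). Fosl1, another AP-1 subunit (difference 0.75 ± 0.11 SE, limma adjusted p = 3.29e-05, voom adjusted p = 0.000102), and Cebpd, an acute-phase transcription factor (difference 0.78 ± 0.17 SE, limma adjusted p = 0.00444, voom adjusted p = 0.00722), followed. Among 18 injury-induced transcription factors the DBA response was higher for 5, beside 3.49% of all genes, and lower for none. Fos, Arc and Ier3 are also among 16 genes that rise with handling and dissection time, of which these 3 were called, beside 7.20% of all genes. That list had a median difference of 0.41, against 0.012 over all genes. Of its genes 13 rose in DBA and 9 in C57, beside 27.5% and 19.5% of all genes, and 3 fell in C57. The part of handling in the other differences was not tested. Of 18 genes of the integrated stress and unfolded protein responses 6 had a higher DBA response, among them the endoplasmic reticulum chaperones Sdf2l1 (0.68), Pdia4 (0.62), Hspa5 (0.53) and Calr, which read 127 to 145 CPM naive and 121 to 131 injured in C57 and 116 to 124 and 148 to 165 CPM in DBA (difference 0.51 ± 0.077 SE, limma adjusted p = 9.96e-05, voom adjusted p = 0.000147). Those 6 stand beside 3.49% of all genes, while the list's median difference was 0.040, near that over all genes.

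Many genes of resting sensory neurons fell in both strains and fell further in DBA. Of 22 nociceptor genes, those of pain-sensing neurons, 20 fell in DBA and 19 in C57, beside 24.7% and 21.3% of all genes, while 1 rose in DBA and 2 in C57. The DBA response was lower for 14 of the 22 and higher for none, against 3.71% of all genes, and the median difference was -0.54. Among the 14 is P2rx3, which rose in C57 (0.46) and whose DBA change of 0.081 was not called. Tac1, the precursor of substance P, read 290.2, 222, 248 and 257 CPM in naive and 121, 149.96, 154 and 135 in injured C57 libraries, and 238, 234, 228 and 257 in naive and 72.5, 81.6, 79.7 and 76.7 in injured DBA libraries. The naive groups overlap, the injured groups do not, and the difference was -0.76 ± 0.12 (SE; limma adjusted p = 0.00012, voom adjusted p = 0.00017). Lpar3, a lysophosphatidic acid receptor of itch pathways, fell 1.84-fold and 3.42-fold (difference -0.87 ± 0.20 SE, limma adjusted p = 0.00585, voom adjusted p = 0.00632). Mrgprb4 and Mrgprb5, receptors of unmyelinated skin afferents from a family of close relatives, differed by -1.19 and -0.76; the call of Mrgprb5 ended in 18 of 27 alternative settings, at -0.375 with a pseudocount of 2 CPM (limma adjusted p = 0.221), and that of Mrgprb4 in none. Scn10a and Scn11a, the sodium channels Nav1.8 and Nav1.9, fell from 1132 to 587 CPM and from 617 to 322 CPM in C57. In DBA they fell from 949.6 to 323 CPM and from 579.8 to 181 CPM. Calca, which encodes CGRP, is a nociceptor gene without such a gap, with a difference of 0.0041 (0.991 as its limma adjusted p). In the list of 25 voltage-gated and potassium channels 6 had a lower DBA response, beside 3.71% of all genes, and none a higher. Among them were Kcns3, by -0.57 ± 0.089 (SE; limma adjusted p = 0.000141, voom adjusted p = 0.000168), and Kcnd3, by -0.51 ± 0.13 (SE; limma adjusted p = 0.0146, voom adjusted p = 0.0132). Of 16 pan-neuronal genes 1 was called, a share near the 7.20% of all genes. It was Syt1, the calcium sensor of synaptic vesicle release, which fell 1.198-fold in C57 and 1.87-fold in DBA (difference -0.64 ± 0.073 SE, limma adjusted p = 2.34e-06, voom adjusted p = 4.36e-06). The pan-neuronal list summed to 12620.0 to 14720.0 CPM in injured C57 and 14630.0 to 15650.0 CPM in injured DBA libraries, from 15540.0 to 15980.0 and 16440.0 to 18040.0 CPM naive. Of its genes 11 fell in DBA and 8 in C57, beside 24.7% and 21.3% of all genes, and 4 rose in each strain. Gfra2, the neurturin receptor, was the 1 called lower member of 22 neurotrophic factors and receptors (difference -0.58 ± 0.15 SE, limma adjusted p = 0.0121, voom adjusted p = 0.0129). Of the 22, 5 were higher, beside 3.49% of all genes.

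**Figure D3:**
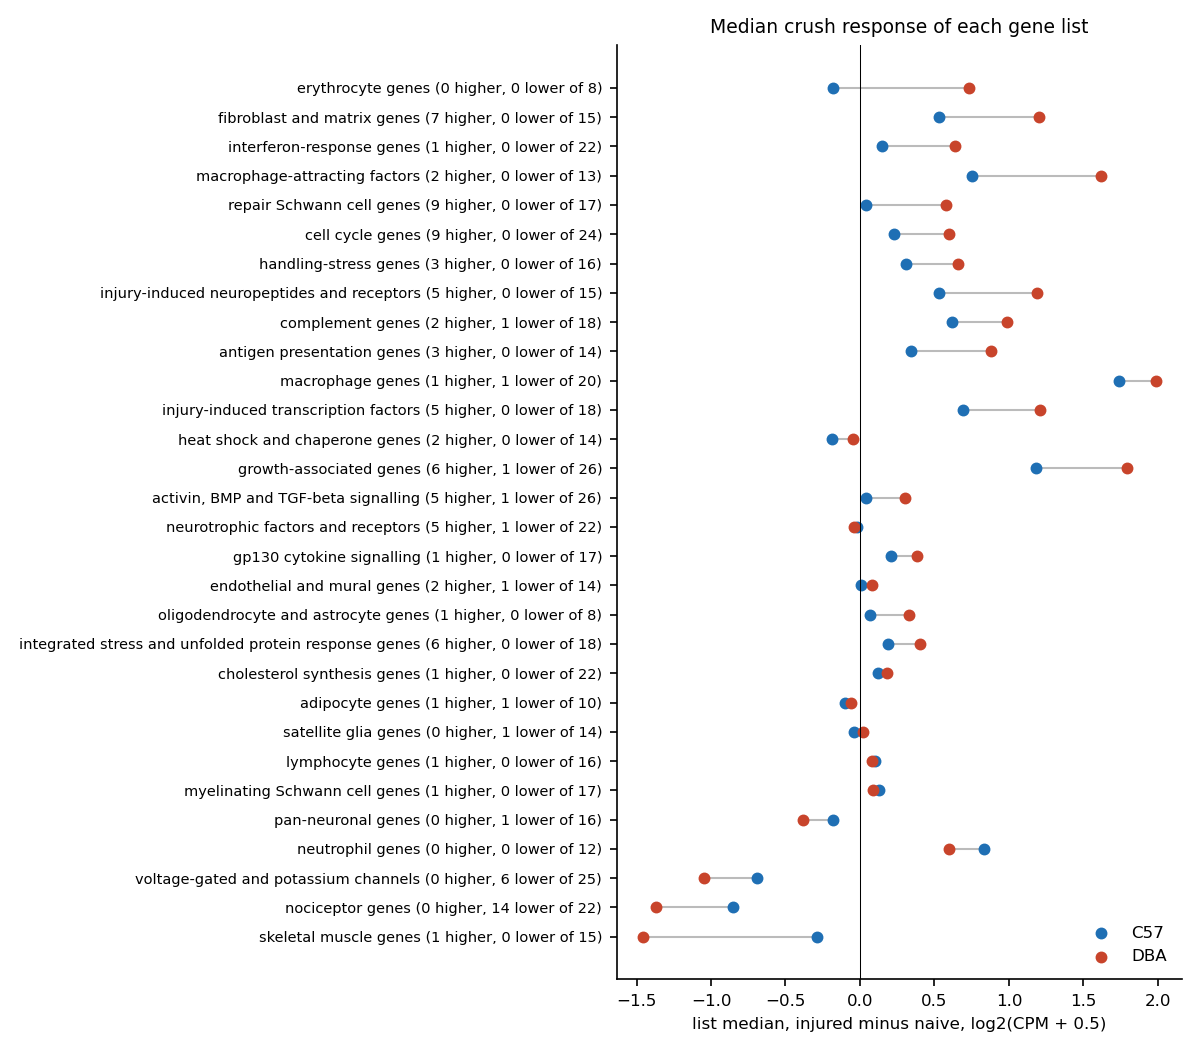
Median change from naive to injured ganglia, log2(CPM + 0.5), over the tested members of each of 30 gene lists, in C57 (blue) and DBA (red), with the number of members called higher and lower in the DBA minus C57 difference after each name. Fibroblast and matrix, repair Schwann cell and neuropeptide lists lie further right in DBA, and nociceptor and channel lists further left. The erythrocyte list had the highest median difference (0.99) and the skeletal muscle list the lowest (-1.04). The difference was called for no erythrocyte gene and for 1 skeletal muscle gene, which was higher in DBA.

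Subunits of serotonin and nicotinic acetylcholine receptors were among the genes with the lowest DBA response. Htr3a, a subunit of the ionotropic serotonin receptor (chromosome 9, 48899213 to 48911099, minus strand), read 131, 115, 117 and 117 CPM in naive and 50.4, 58.2, 57.1 and 53.0 in injured C57 libraries. In DBA it read 81.8, 76.0, 79.9 and 80.2 CPM naive and 9.54, 14.7, 11.7 and 12.5 CPM injured. It fell 2.19-fold in C57 and 6.57-fold in DBA, with no overlap of any 2 groups (difference -1.55 ± 0.17 SE, limma adjusted p = 1.17e-06, voom adjusted p = 7.72e-07); in CAST it went from 50.4 to 11.999 CPM. Its neighbour Htr3b, which forms a receptor with it, differed by -1.40 (5.97e-08 by limma, 8.39e-08 by voom, both adjusted p). Chrna3 and Chrnb4, nicotinic receptor subunits that pair with each other and lie side by side (chromosome 9, 55010111 to 55026562, minus strand and chromosome 9, 55028154 to 55048779, minus strand), fell in DBA, while their C57 changes were not called. Chrna3 read 16.1, 13.1, 22.7 and 13.8 CPM naive and 18.9, 18.3, 21.6 and 17.9 injured in C57, and 8.70, 7.37, 11.6 and 7.01 naive and 2.52, 2.77, 2.78 and 3.54 injured in DBA. Its C57 groups overlap and its DBA groups do not (difference -1.66 ± 0.21 SE, limma adjusted p = 1.08e-05, voom adjusted p = 4.86e-05). Chrnb4 fell 5.79-fold in DBA, and its C57 change of -0.30 was not called (difference -1.80 ± 0.20 SE, limma adjusted p = 1.39e-06, voom adjusted p = 2.61e-05). Chrna5, the third gene of this cluster, went from 0.394 to 3.07 CPM in C57 and from 0.332 to 3.11 CPM in DBA and was not called. Chrna6 and Chrnb3, a second adjacent pair of nicotinic subunits, differed by -1.15 and -1.23.

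Hox genes, which mark the position of a cell along the body axis, bear on how these ganglia compare. Of 31 Hox genes tested, 6 had a lower DBA response, beside 3.71% of all genes, and none a higher. They are named because of their values, Hoxc11, Hoxd11 and Hoxd10 by the rule for the largest differences and the others after their values were seen. Hoxd10 (chromosome 2, 74691924 to 74695105, plus strand) read 8.71, 6.15, 11.3 and 8.86 CPM naive and 7.85, 8.80, 9.34 and 9.30 injured in C57, and 8.91, 9.07, 12.3 and 7.71 naive and 2.09, 1.26, 1.65 and 1.51 injured in DBA. All 4 injured DBA libraries lie below every other library, and the difference was -2.27 ± 0.19 (SE; limma adjusted p = 4.16e-08, voom adjusted p = 2.94e-07). Hoxd11 fell 8.61-fold in DBA (difference -2.43 ± 0.23 SE, limma adjusted p = 2.53e-07, voom adjusted p = 1.61e-06). Hoxc11 read 3.06, 2.54, 4.83 and 1.62 CPM in naive and 0.0202, 0.0354, 0.00936 and 0.0173 CPM in injured DBA libraries, and 1.07 to 2.58 and 1.85 to 2.78 CPM in C57 (difference -3.05 ± 0.30 SE, limma adjusted p = 5.04e-07, voom adjusted p = 0.00028). The mean CPM of these 3 genes in CAST went from 1.43 to 1.07 for Hoxc11, 6.61 to 5.49 for Hoxd11 and 10.6 to 9.73 for Hoxd10, and none of the 3 changes was called in CAST or in C57. The other 3, Hoxd1 (-0.62), Hoxd9 (-0.40) and Hoxc10 (-0.37), differed by less. The call of Hoxc10 ended in 15 of 27 alternative settings and that of Hoxd9 in 8, so the count of 6 depends on the processing. No gene of the Hoxa or Hoxb cluster was called. The level of the ganglia is not labelled, so whether the injured DBA libraries hold ganglia of another level cannot be told apart from a change within the cells.

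**Figure D4:**
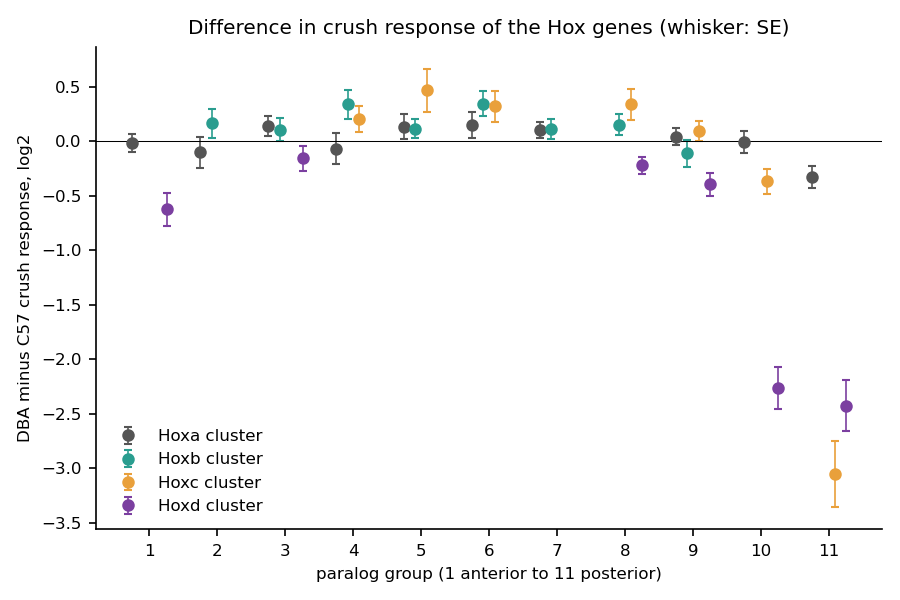
Difference between the DBA and C57 crush responses (log2, whiskers are SE) of the 31 tested Hox genes by paralog group, coloured by cluster. Hoxd10, Hoxd11 and Hoxc11 lie between -3.05 and -2.27, and the other 28 genes between -0.62 and 0.47.

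The remaining genes with the lowest DBA response included Srd5a2 and Uts2d. Srd5a2, steroid 5-alpha-reductase 2 (chromosome 17, 74016955 to 74047916, minus strand), had the largest lower difference on log2(CPM + 0.5), while Hoxc11 was lower by voom, at -7.29 against -5.52. Srd5a2 read 3.69, 2.82, 6.14 and 3.94 CPM naive and 4.90, 5.23, 5.52 and 5.67 injured in C57. In DBA it read 5.11, 4.37, 5.57 and 3.19 CPM naive and 0.104, 0.163, 0.115 and 0.124 CPM injured. Only the injured DBA libraries were low (difference -3.36 ± 0.27 SE, limma adjusted p = 1.67e-08, voom adjusted p = 6.1e-06). Uts2d, a urotensin-related peptide gene, read 1.33, 1.96, 7.11 and 2.17 CPM in naive and 2.16, 1.11, 2.49 and 2.03 in injured C57 libraries, and 7.66, 6.34, 10.8 and 4.98 in naive and 0.182, 0.133, 0.281 and 0.182 in injured DBA libraries (difference -3.09 ± 0.51 SE, limma adjusted p = 0.000435, voom adjusted p = 0.00667). In naive C57 the highest value of Srd5a2, Uts2d, Chrna3, Chrnb4, Hoxc11, Hoxd10 and Hoxd11 alike was in replicate 3, and in naive DBA replicate 3 was again the highest for all 7. These 7 were put together after their values were seen. Chrna3 with Chrnb4 and Hoxd10 with Hoxd11 are neighbours, so the 7 are not independent. Htr3a, also among the lowest responses, was highest in replicate 1 in both naive groups. The part of ganglion level in the differences of these genes was not tested. Ibsp, bone sialoprotein, read 3.35 to 5.08 CPM naive and 3.37 to 4.79 injured in C57, against 9.31 to 11.001 and 3.02 to 3.77 in DBA (difference -1.56 ± 0.17 SE, limma adjusted p = 1.24e-06, voom adjusted p = 1.04e-06), and in CAST it went from 3.48 to 0.804 CPM. Cidea, a lipid droplet protein, fell 1.64-fold in C57 and 7.69-fold in DBA (difference -1.50 ± 0.18 SE, limma adjusted p = 3.38e-06, voom adjusted p = 6.05e-06).

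Scpep1, a serine carboxypeptidase of lysosomes (chromosome 11, 88924020 to 88955465, minus strand), rose in both strains and rose less in DBA. It read 24.9, 23.6, 23.1 and 24.4 CPM naive and 126, 114, 119 and 110.4 injured in C57. In DBA it read 19.5, 18.8, 20.5 and 18.4 CPM naive and 31.4, 29.3, 31.2 and 30.5 injured. The rise was 4.89-fold in C57 and 1.58-fold in DBA (difference -1.61 ± 0.083 SE, limma adjusted p = 4.27e-12, voom adjusted p = 6.44e-11), and in CAST the level went from 25.1 to 101 CPM. The genes around it were examined after this value was seen. Coil, the Cajal body protein coilin, is transcribed from the opposite strand with its start 14787 bases from that of Scpep1. It read 6.27 to 6.53 CPM naive and 15.3 to 17.9 injured in C57, 4.65 to 4.83 and 4.24 to 4.80 in DBA, and went from 5.72 to 14.8 CPM in CAST. It rose in C57 and CAST, and its DBA change of -0.063 was not called (difference -1.36 ± 0.077 SE, limma adjusted p = 2.59e-11, voom adjusted p = 8.96e-10). The antisense gene 4930405P13Rik, which overlaps Scpep1, differed by -1.60 ± 0.083 (SE; limma adjusted p = 4.83e-12, voom adjusted p = 6.44e-11), and the pseudogene 2210409E12Rik, inside Coil, by -0.86 ± 0.079 (SE; limma adjusted p = 8.76e-08, voom adjusted p = 0.00604); without strand in the counting, reads of such overlapping genes cannot be told apart. Akap1, which anchors protein kinase A to mitochondria and lies on the far side of Scpep1 from Coil, differed by -0.29 ± 0.073 (SE; limma adjusted p = 0.0135, voom adjusted p = 0.0209). Trim25 and Dgke, which lie beyond Coil, were not called.

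**Figure D5:**
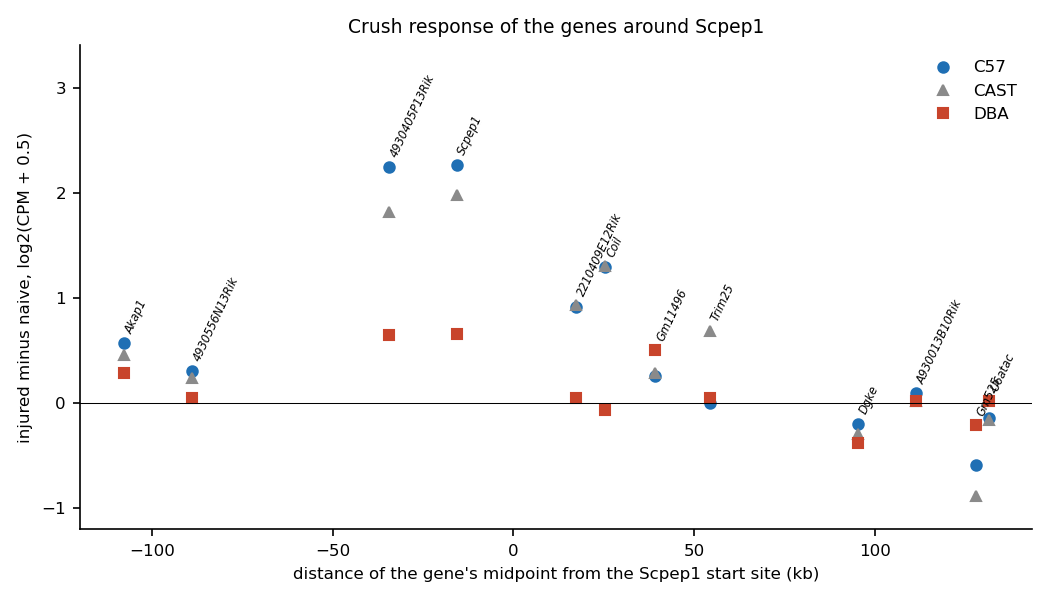
Change from naive to injured ganglia, log2(CPM + 0.5), of the tested genes within 150 kb of Scpep1 against the distance of the gene's midpoint from the Scpep1 start site, in C57, CAST and DBA. Scpep1, 4930405P13Rik, Coil and 2210409E12Rik lie higher in C57 and CAST than in DBA, and Dgke and Trim25 were not called.

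Some of these genes are neighbours. Of 99 protein-coding genes with a called difference of at least 1 in size and a mean of at least 1 CPM, 22 lay within 100 kb of another of them, in 12 pairs. How often other genes lie so close was not tested. Of the 12 pairs, 5 are overlapping gene models (Ccl2 with Gm17268, Fgl2 with Ccdc146) or Serpina1 copies, whose reads cannot be told apart. Hoxd10 with Hoxd11, Chrna3 with Chrnb4, Chrna6 with Chrnb3, Htr3a with Htr3b, and Klk8 with Klk5, 2 secreted serine proteases that differed by -1.52 and -1.34, moved in 1 direction. Tubb6 and Cidea on chromosome 18 moved in opposite directions.

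A few genes went up in 1 strain and down in the other. Btc, the EGF-family ligand betacellulin (chromosome 5, 91357261 to 91402994, minus strand), read 0.823, 1.04, 1.04 and 0.994 CPM naive and 0.522, 0.698, 0.389 and 0.538 injured in C57, and 0.899, 0.530, 0.725 and 0.826 naive and 3.11, 2.69, 3.07 and 2.41 injured in DBA. It fell 1.82-fold in C57 and rose 3.79-fold in DBA, and in neither strain did naive and injured libraries overlap (difference 1.93 ± 0.17 SE, limma adjusted p = 6.4e-08, voom adjusted p = 2.16e-06). Tgm5, a transglutaminase, rose 1.87-fold in C57, being between 0.826 and 0.941 CPM naive and between 1.496 and 2.03 CPM injured, and fell 1.93-fold in DBA, being between 3.42 and 3.79 CPM naive and between 1.69 and 2.20 CPM injured (difference -1.43 ± 0.12 SE, limma adjusted p = 2.28e-08, voom adjusted p = 9.89e-08). Serpina1b, Serpina1c, Serpina1d and Serpina1e, which encode alpha-1-antitrypsins, fell in C57 and rose in DBA, with differences of 1.70, 1.29, 1.24 and 1.17. They are near-identical copies in 1 cluster on chromosome 12, so these are not 4 independent results and the split of reads among them is uncertain.

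Tnfrsf8 and Tmem88b rose less in DBA than in C57. Tnfrsf8, the TNF-family receptor CD30 (chromosome 4, 145267137 to 145315164, minus strand), read 0.0729, 0.0257, 0.0613 and 0.0279 CPM naive and 4.06, 3.57, 3.78 and 3.84 injured in C57, and 0.0967, 0.0757, 0.111 and 0.0923 naive and 0.930, 0.855, 0.964 and 0.802 injured in DBA. The injured groups did not overlap (difference -1.75 ± 0.10 SE, limma adjusted p = 6.28e-11, voom adjusted p = 7.43e-05), and in CAST it went from 0.103 to 0.459 CPM. Tmem88b, a transmembrane protein gene, rose 12.5-fold in C57 and 3.28-fold in DBA (difference -1.89 ± 0.20 SE, limma adjusted p = 7.69e-07, voom adjusted p = 9.89e-06), and in CAST went from 3.06 to 10.9 CPM.

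Since AP-1 subunits were among the genes with a larger DBA response, the 250 bases before the start site were searched for TGANTCA. This pattern takes in the AP-1 site, allows any middle base and reads the same on both strands. RefSeq promoters (GRCm38.p6) were matched by symbol for 13708 of the 26157 genes, and 6.6% of these held the pattern. It was in 8.6% of the 532 matched genes that rose more in DBA, in 7.1% of the 549 that fell more in DBA and in 10.2% (6 of 59) of those that rose more in C57. Of the genes with the pattern and a mean of at least 1 CPM, the 3 with the largest difference among those that rose more in DBA and the 2 among those that rose more in C57 are shown. The match is in capitals. They show the pattern in front of genes whose strain difference runs in either direction. The middle base is A in Tmem88b and G or C in the others.
Tmprss11f: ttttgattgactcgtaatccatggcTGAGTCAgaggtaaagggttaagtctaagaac
Fgl2: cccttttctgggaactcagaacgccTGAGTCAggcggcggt
Cybrd1: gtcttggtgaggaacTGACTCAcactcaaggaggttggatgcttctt
Tmem88b: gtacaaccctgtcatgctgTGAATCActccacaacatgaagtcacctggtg
Tnfrsf8: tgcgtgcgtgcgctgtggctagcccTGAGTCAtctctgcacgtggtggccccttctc
These stretches are chr5:86632441-86632497, minus strand, for Tmprss11f; chr5:21372632-21372672, plus strand, for Fgl2; chr2:71117804-71117850, plus strand, for Cybrd1; chr4:155786074-155786124, minus strand, for Tmem88b; and chr4:145315265-145315321, minus strand, for Tnfrsf8. Tmprss11f, a transmembrane serine protease, went from 0.287 to 1.07 CPM in C57 and from 0.312 to 3.65 CPM in DBA. Fgl2, a fibrinogen-like protein, went from 11.5 to 19.8 CPM in C57 and from 15.5 to 63.0 CPM in DBA; it overlaps Ccdc146, from which its reads cannot be told apart. Cybrd1, a ferric reductase, went from 8.22 to 8.62 CPM and from 12.6 to 26.7 CPM. A match describes the letters and does not show that a factor binds there.

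Library facts touch a few of these values. The 16 libraries held an estimated 51.4 to 124.7 M reads, the fewest in injured C57 replicate 3. Skeletal muscle genes summed to 34.01 to 395 CPM in naive DBA libraries, highest in replicate 3, against 28.5 to 54.1 in naive C57, 15.5 to 26.1 in injured C57 and 21.5 to 31.2 in injured DBA. The median difference of that list was -1.04, but 1 of 15 was called, a share near the 7.20% of all genes, and none was lower. The 1 called, with a higher DBA response, was Pvalb, which proprioceptive neurons also express (0.58). The 8 erythrocyte genes had a median difference of 0.99, but the difference was called for none of them. In DBA 3 of the 8 rose and in C57 none, beside 27.5% and 19.5% of all genes. Their sums overlapped, at 438 to 1425 CPM in injured DBA and 455 to 913 CPM in injured C57 libraries. The summed level of the oligodendrocyte and astrocyte list was 80.3 to 94.1 CPM in injured DBA against 33.95 to 38.4 in injured C57 libraries. When naive it was 30.4 to 35.1 CPM in DBA and 24.9 to 27.4 CPM in C57. Of its 8 tested genes 4 rose and 2 fell in DBA, and 2 rose and 2 fell in C57. The difference was called for 1 of the 8, Gfap, beside 7.20% of all genes. The part of the other members in the sum was not tested.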

How the data were processed

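Ganglion RNA was sequenced from 24 libraries, and the deposited values are FPKM per gene made by the authors, aligned with STAR 2.3.0 to mm10 per the submitters' processing notes. No source used here names the counting tool or says whether it used strand. FPKM was multiplied by the GENCODE M21 genomic span of each gene (36429 of 38215 IDs) to give estimated CPM. That the deposited FPKM follow this span was inferred from the values, and no source used here states it. Library totals came from read units chosen so that as many low values as possible were whole reads. Of values from 0.5 to 100 reads, 64.5 to 69.6% then lay within 0.05 of a whole read, where chance gives 10%. A gene needed 10 or more estimated reads in 4 or more libraries to enter limma 3.58.1 (trend and robust) on log2(CPM + 0.5) over 6 group means in all 24 libraries, with Benjamini-Hochberg adjustment at 0.05. Crush responses are called by limma alone. The strain difference also had to pass voom in the same direction, a rule added after tests on simulated data. Genes named are the 12 largest differences each way, 6 in opposite directions, up to 4 called per list, 11 regeneration genes and the 4 largest rises. Members and lists were chosen with earlier results of these data known. Alternatives covered scaling, pseudocounts, filters, tests and left-out libraries. The p-values measure only the spread between these libraries.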

Additional observations from a re-analysis of the deposited data

Results flagged for a closer look

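By the test of the difference itself, 1882 genes differed between DBA and C57 in their response to crush. Among the genes whose responses were called in opposite directions, the differences were 1.93 for Btc, 1.70 for Serpina1b, 1.29 for Serpina1c, 1.24 for Serpina1d, 1.17 for Serpina1e and -1.43 for Tgm5, on the log2 scale.

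A library stood apart from the other 3 of its group by Dixon's criterion in 9 of 152 gene and group sets over 38 genes, and chance gives about 1 in 20. Gal read 1494.5 CPM in injured DBA replicate 3, the lowest of its group, and Gfap 40.1 CPM in injured DBA replicate 1, the highest. C1ql2 read 0.187 CPM in naive DBA replicate 3 and Sox11 16.9 CPM in naive DBA replicate 4. In C57, Gadd45a read 54.0 CPM and Tgm5 2.03 CPM in injured replicate 1, Sprr1a 2.50 CPM and Htr3a 131 CPM in naive replicate 1, and Uts2d 7.11 CPM in naive replicate 3.

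Outside the genes with an annotated span, 41 of 907 IDs were called in the same comparison on log2(FPKM + 1).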

How the results depend on the processing

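The count of 1882 genes lay between 1559 and 2154 under the alternatives and between 1426 (without injured DBA replicate 1) and 2247 (without naive C57 replicate 1) with 1 library left out. With limma alone, 286 genes rather than 190 changed more in C57. Of 101 called named genes, 71 were called in the same direction under every alternative and none reversed. On log2(FPKM + 1) the calls of Bub1b, Mcm6, Lgals3, Lpar3, Kcnd3, Chrnb4, Pvalb, Vwf, Scn9a, Acta2, Hoxc10 and Mrgprb5 ended. With 3 libraries left out those of B2m, H2-K1, Akap1, Fst, Ccnb2, Inhbb, Cd4, Kcna4, Acta2, Hsph1, Hspd1 and Mrgprb5 ended, and without naive C57 replicate 1 that of Nts, among others. The counts of called members in several lists thus depend on the processing. Among genes that were not called, Npy turned to -0.109 with voom, Sprr1a to -0.0823 with 3 libraries left out and Atf3 to 0.0152 on log2(FPKM + 1). With 1 library left out, Sox11 ranged from -0.00723 to 0.195 and Atf3 from -0.123 to 0.0401; the cause was not tested. With group means taken off, libraries of the same replicate number in different groups correlated from -0.354 to 0.432, with 12 of 24 pairs above 0.1. Of 16 libraries, 5 correlated best with a library of their own number. Whether the replicate numbers mark a batch was not settled. With a replicate block 2019 genes were called by both tests. Low read numbers limit genes such as Hoxc11 and Lmx1a, whose lowest groups hold a few reads.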
